A study of Mus musculus and Sus scrofa with 30 samples.

Results

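The genes described here are 9 members of the machinery that breaks down stored fat: the lipases Pnpla2, Lipe and Mgll, the coactivator Abhd5, the inhibitor G0s2, the receptors Adrb1, Adrb3 and Hcar1, and the protein kinase A subunit Prkar2b. They were taken by symbol, ignoring case, from the mouse and the pig expression tables. Every member matched 1 row in each table, so they are 9 of 24843 mouse genes and 9 of 34307 pig genes. RNA was sequenced in bulk from 2 cell systems on day 5 of fat cell induction, with 5 groups of 3 libraries in each system and 30 libraries in all. Mouse 3T3-L1 cells, an established line of embryonic fibroblasts able to form adipocytes, were induced with insulin (0.75 µg/mL), dexamethasone (75 nM) and the phosphodiesterase inhibitor IBMX (37.5 µM) in 10% serum. Porcine dedifferentiated fat (DFAT) cells, proliferative cells derived from mature fat cells of subcutaneous fat, received dexamethasone (0.5 µM), IBMX (12.5 µM), biotin (20 µM) and pantothenate (10 µM) in 2% serum, and insulin is not named among its additions. All 5 groups of a system, the vehicle group included, shared this mix, so every library comes from cells exposed to an inhibitor of cyclic AMP breakdown. The groups were DMSO vehicle, dicoumarol (a coumarin anticoagulant), magnolol (a lignan of magnolia bark), dicoumarol together with magnolol (the combination), and rosiglitazone (an agonist of the nuclear receptor PPARγ). No dose of any of the 4 treatments was found in the labels, which also leave unsaid whether the 3 libraries of a group came from separate cultures, so p-values measure only the spread between these libraries.

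Triglyceride in the lipid droplet is cleaved in steps. Adipose triglyceride lipase (Pnpla2) removes the first fatty acid, hormone-sensitive lipase (Lipe) acts on the diglyceride, and monoglyceride lipase (Mgll) releases glycerol; Abhd5 activates Pnpla2 and G0s2 inhibits it. In fat cells, catecholamines acting on β-adrenergic receptors such as Adrb1 and Adrb3 raise cyclic AMP and protein kinase A, of which Prkar2b is the regulatory subunit typical of adipose tissue, and the kinase phosphorylates Lipe and the droplet coat protein perilipin, while the lactate receptor Hcar1 lowers cyclic AMP.

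In 3T3-L1 cells the lipases, their coactivator and their inhibitor rose together with rosiglitazone: Pnpla2 was 6.92-fold higher than with vehicle, Lipe 7.76-fold, Mgll 13.3-fold, Abhd5 2.2-fold and G0s2 32.2-fold. The combination raised the same 5 genes, by 1.52-fold for Abhd5 up to 7.74-fold for G0s2, and magnolol raised Pnpla2, Lipe and G0s2. In DFAT cells the pattern was narrower. LIPE was 2.12-fold higher with dicoumarol, 3.33-fold with magnolol, 6.13-fold with both compounds and 7.24-fold with rosiglitazone. PNPLA2 differed from vehicle past the threshold with rosiglitazone alone (1.49-fold) in the main fit, which has no replicate term. PRKAR2B rose 1.26-fold with the combination and 1.75-fold with rosiglitazone in DFAT cells, and its level with the combination lay above the sum of the single effects. The receptors Adrb1 and Adrb3 were near the detection limit in 3T3-L1 cells outside the rosiglitazone group, and G0S2, ADRB1, ADRB3 and HCAR1 were at or near 0 in all DFAT groups. Folds in the text are linear and come from differences of log2(normalized count + 1), which understates the change of low genes.

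The estimated depth lay between 22.8 and 30.7 M reads in 3T3-L1 libraries and between 44.8 and 70.5 M in DFAT libraries. An estimated 3 reads correspond to 2.57 to 3.71 and 2.54 to 3.85 normalized counts. No floor was applied, and values listed at 0 were left at 0. All of 10 adipocyte markers were listed in both systems, and the group means of their summed level ran in the order vehicle, dicoumarol, magnolol, combination and rosiglitazone, as did those of every 3T3-L1 member but Adrb1 and, in DFAT cells, of LIPE and MGLL alone; Plin1 and Fabp4 stand both in this list and in the pathway list used below. In 3T3-L1 libraries the sum ran from 44240 to 62227 normalized counts with vehicle, 62361 to 96783 with dicoumarol, 89288 to 133353 with magnolol, 115220 to 181511 with the combination and 322094 to 567162 with rosiglitazone. In DFAT libraries it ran from 18496 to 21430, 23459 to 25098, 36187 to 44615, 56945 to 64249 and 76458 to 83530 in that order of groups, with Retn at 0 throughout. The sum of 8 preadipocyte and fibroblast markers was 235276 to 274602 with vehicle and 151356 to 178768 with rosiglitazone in 3T3-L1 cells. In DFAT cells, with 6 of the 8 listed and Col1a1 the most abundant, it was 1358672 to 1460685 with vehicle, 1857836 to 1991805 with dicoumarol, 2082225 to 2422154 with magnolol, 2056544 to 2323657 with the combination and 1174334 to 1246096 with rosiglitazone. The sum hides a split among the 5 markers with a mean of at least 10. Their log2 fold changes against vehicle ran from -0.62 to 0.74 with dicoumarol and -0.34 to 0.86 with magnolol. They ran from -0.86 to 1.01 with the combination and -1.10 to 0.11 with rosiglitazone. The 4 endothelial markers summed to at most 239.3 normalized counts in any library, nearly all of it PECAM1 in DFAT cells, where KDR was at 0 throughout. Leukocyte markers, 2 of 4 listed in 3T3-L1 and 3 of 4 in DFAT cells, summed to at most 102.4, with PTPRC at or below 0.981 in DFAT cells. The 4 muscle markers in DFAT cells summed to 127.7 to 143.6 with vehicle and 239.3 to 303.2 with the combination, with MYOD1 and MYOG at or below 3.16 in every library. How much of the differences below goes with these marker sums was not tested. In bulk RNA, fewer fat cells and less of the transcript in each fat cell cannot be told apart.

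Promoters are shown for reference for Pnpla2, Lipe, Abhd5, G0s2 and Prkar2b, which span the largest and the smallest changes among the tested 3T3-L1 members; those of the low-count members Mgll, Adrb1 and Hcar1 are not printed. RefSeq promoters on GRCm38.p6 matched 8 of the 9 members, all but Adrb3; the 250 bases before the annotated start are printed 5′ to 3′ in the direction of transcription. Capitals mark matches on either strand to the nuclear receptor hexamer AGGTCA, the short cyclic AMP motif TGACG, the E-box CACGTG and the GC box GGGCGG. The first or only annotated start was used.
Pnpla2, chr7:141454938-141455187, plus strand: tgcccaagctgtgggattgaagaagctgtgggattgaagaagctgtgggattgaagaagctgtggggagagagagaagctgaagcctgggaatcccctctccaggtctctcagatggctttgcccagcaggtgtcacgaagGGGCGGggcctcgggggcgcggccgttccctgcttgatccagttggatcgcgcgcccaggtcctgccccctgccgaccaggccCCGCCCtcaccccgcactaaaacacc
Lipe, chr7:25395988-25396237, minus strand: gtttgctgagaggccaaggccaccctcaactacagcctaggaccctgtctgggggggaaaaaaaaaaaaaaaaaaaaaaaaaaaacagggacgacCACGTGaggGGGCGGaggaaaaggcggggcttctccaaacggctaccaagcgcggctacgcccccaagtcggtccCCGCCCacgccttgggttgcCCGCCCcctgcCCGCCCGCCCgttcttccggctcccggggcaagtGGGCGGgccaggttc
Abhd5, chr9:122351366-122351615, plus strand: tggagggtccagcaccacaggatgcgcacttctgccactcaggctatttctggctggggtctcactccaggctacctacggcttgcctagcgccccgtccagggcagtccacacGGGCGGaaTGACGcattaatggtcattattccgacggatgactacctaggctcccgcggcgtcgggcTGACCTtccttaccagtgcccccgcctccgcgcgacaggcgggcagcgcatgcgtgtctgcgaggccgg
G0s2, chr1:193273189-193273438, minus strand: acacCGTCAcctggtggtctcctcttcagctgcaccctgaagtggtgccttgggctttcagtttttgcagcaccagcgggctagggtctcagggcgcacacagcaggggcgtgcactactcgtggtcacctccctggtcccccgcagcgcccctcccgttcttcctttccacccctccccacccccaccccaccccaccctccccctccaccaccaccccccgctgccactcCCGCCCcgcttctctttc
Prkar2b, chr12:32061278-32061527, minus strand: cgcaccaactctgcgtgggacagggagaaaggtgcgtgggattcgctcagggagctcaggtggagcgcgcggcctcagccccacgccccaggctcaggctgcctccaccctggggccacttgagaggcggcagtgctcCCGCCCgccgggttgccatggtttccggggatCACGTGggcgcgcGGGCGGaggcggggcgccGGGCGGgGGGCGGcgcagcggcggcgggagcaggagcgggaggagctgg

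Among these windows only that of Abhd5 held AGGTCA, on the opposite strand and beginning 69 bases before the start; 14% of 32851 mouse promoters of the same length hold it. TGACG occurred in the Abhd5, G0s2 and Adrb1 windows, against 17.8% of all promoters, and its first base lay 128 bases before the start in Abhd5. The palindromic E-box, which reads the same on both strands, occurred at the first starts of Lipe (155 bases before the start), Mgll (44) and Prkar2b (80), against 6.02% of all promoters. GC boxes occurred in each of the 5 windows shown and in that of Adrb1, against 32.7% of all promoters. The first Mgll start and Hcar1 held none. Of the second starts, that of Mgll held a GC box and those of Lipe and Prkar2b held none. No member window held the full cyclic AMP response element TGACGTCA, present in 1.55% of promoters, or an exact direct repeat of AGGTCA with 1 base between, present in 0.0335%; TGACG is part of the former and AGGTCA of the latter. CCAAT, also searched, occurred in the Adrb1 window alone, against 33.8% of all promoters. A match describes letters only, and gene-level counts do not say which start was used.

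Comparisons with vehicle asked which members each compound changed. Of the 9 members, 7 in 3T3-L1 cells reached the minimum mean of 10 normalized counts and were tested with limma (adjusted p under 0.05 over all 15723 genes tested), Adrb1 and Adrb3 falling below it. In DFAT cells 5 of 9 were tested among 14819 genes, and G0S2, ADRB1, ADRB3 and HCAR1 fell below. For dicoumarol in 3T3-L1 cells limma called 0 members and 0% of all genes higher; 393 genes had an unadjusted p under 0.05. The replicate numbers pair the 3T3-L1 libraries, and with the replicate number as a block 3 members (Pnpla2, Lipe and G0s2) and 0.458% of all genes were called higher. Magnolol gave 3 members higher where 1.07% of all genes were called higher, and 6 members with the block, where the share of all genes was 3.52%. The combination gave 6 members against 3.86% of all genes, and rosiglitazone all 7 tested members against 20.3% of all genes. No member was called lower in 3T3-L1 cells.

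In DFAT cells dicoumarol gave 1 member higher, against 0.911% of all genes, and 1 member lower, against 1.03% of all genes. Magnolol gave 2 members higher where 2.96% of all genes were called higher, the combination 4 where 6.11% were, and rosiglitazone all 5 tested members where 5.8% were. The median log2 fold change of the tested members in 3T3-L1 cells was 0.79 with dicoumarol, 1.66 with magnolol, 1.97 with both compounds and 2.96 with rosiglitazone. In DFAT cells these medians were 0.10, 0.07, 0.33 and 0.80, and the median over all genes tested lay within 0.011 of 0 in every comparison. A difference between the systems was not tested, since their tables were normalized separately.

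**Figure D1:**
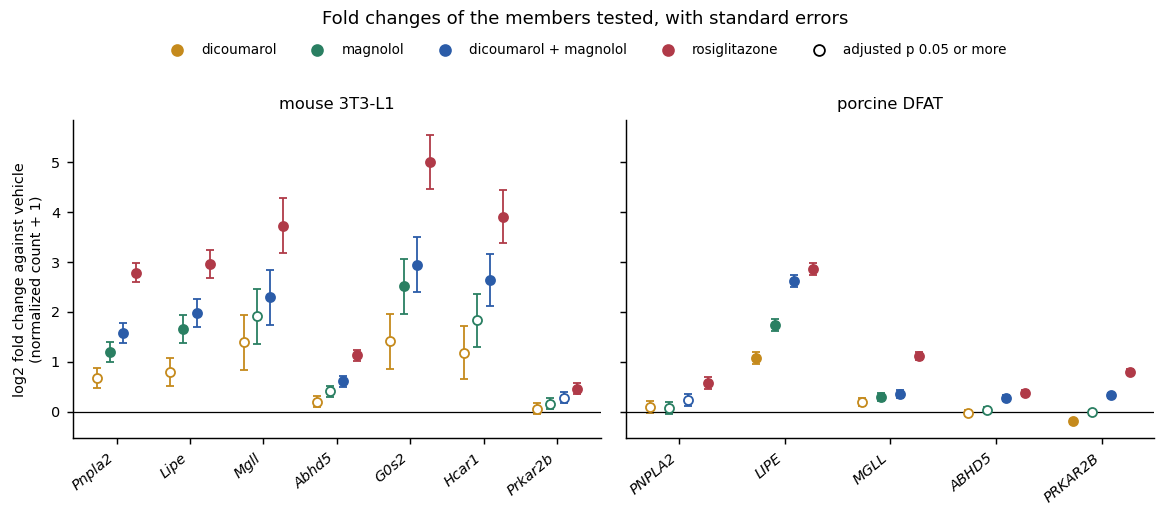
Log2 fold change against vehicle, on the log2(normalized count + 1) scale, of each tested member (x axis) for 4 treatments (colours), with bars for the standard error; open points had a limma adjusted p of 0.05 or more. In 3T3-L1 cells each of the 7 members is lowest with dicoumarol and highest with rosiglitazone, and in DFAT cells LIPE has the largest rise under each treatment.

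Pnpla2 (ENSMUSG00000025509, chromosome 7, 141035111 to 141040656, plus strand, in the coordinates of the deposited table) encodes the lipase of the first step. In 3T3-L1 cells it had 2852, 2017 and 2755 normalized counts with vehicle, 4630, 3187 and 4374 with dicoumarol, 7080, 4815 and 5635 with magnolol, 9680, 6021 and 7303 with the combination and 20451, 14531 and 17661 with rosiglitazone. All treated libraries lay above all vehicle libraries, the rosiglitazone libraries lay above all others, and replicate 2 was the lowest of its group in 5 of 5 groups. The log2 fold changes were 0.67, 1.20, 1.58 and 2.79 (SE 0.20 each), with limma adjusted p of 1 for dicoumarol, 0.00941 for magnolol, 0.000548 for the combination and 1.52e-07 for rosiglitazone. With the replicate block the adjusted p for dicoumarol was 0.000257. The magnolol call was lost without magnolol replicate 1 (adjusted p 0.0683).

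Porcine PNPLA2 (ENSSSCG00000012841, chromosome 2, 513077 to 518182, plus strand) varied far less between groups. It had 5902, 5696 and 4494 normalized counts with vehicle, 6012, 5555 and 5594 with dicoumarol, 6000, 5905 and 4943 with magnolol, 6628, 6716 and 5452 with the combination and 9135, 8046 and 6787 with rosiglitazone. Only the rosiglitazone libraries lay apart from the vehicle libraries, and replicate 3 was the lowest library in 4 of 5 groups. Rosiglitazone raised it by 0.57 on the log2 scale (SE 0.12, limma adjusted p 0.00289). The differences of dicoumarol, magnolol and the combination from vehicle were 0.10, 0.07 and 0.23, with 95% intervals of -0.14 to 0.35, -0.17 to 0.32 and -0.02 to 0.47. With the replicate block the combination difference passed (limma adjusted p 0.0161), though the numbers do not pair all DFAT groups.

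**Figure D2:**
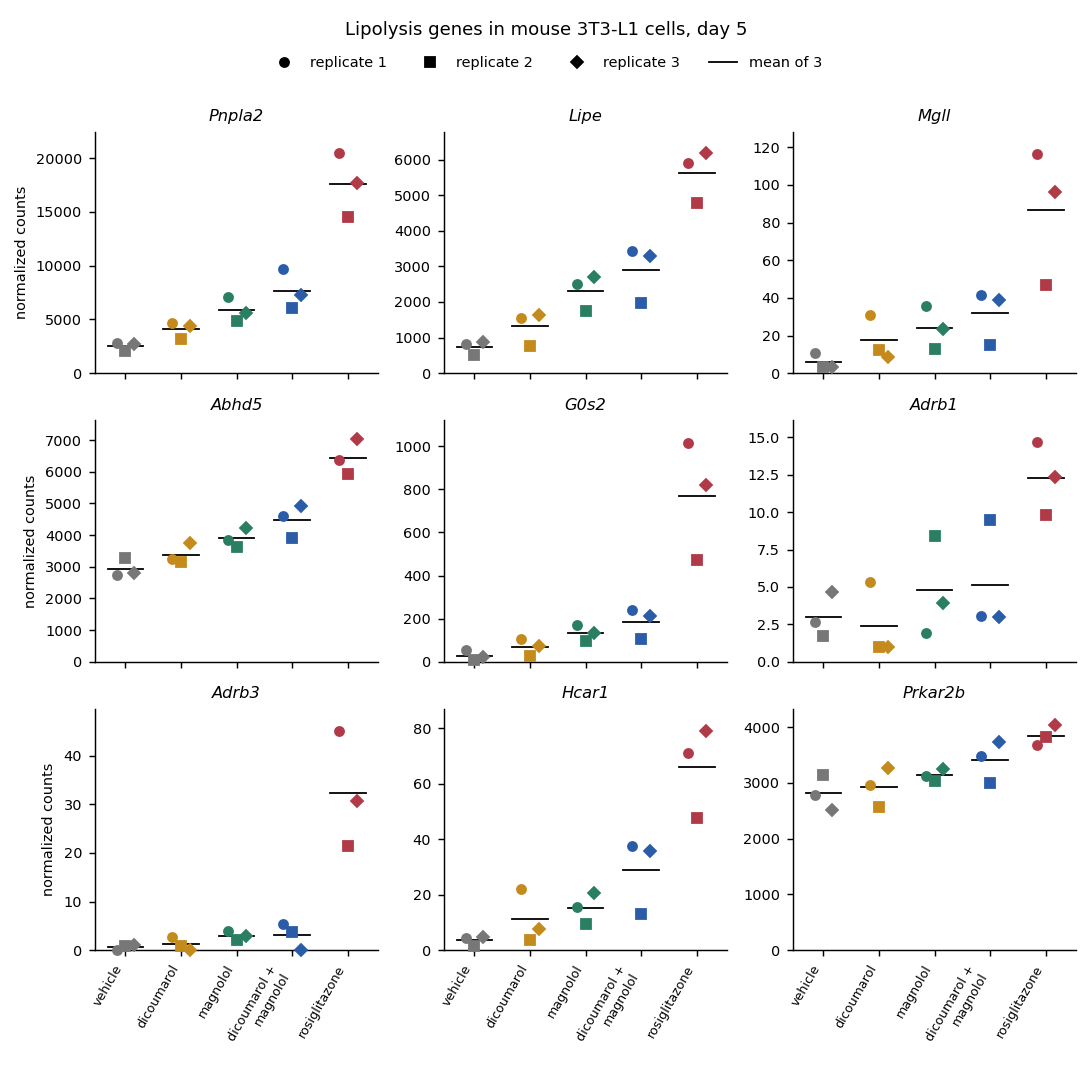
Normalized counts (y axes, linear from 0, a separate scale for each gene) of the 9 members in the 15 mouse 3T3-L1 libraries by treatment; symbols mark the replicate number and lines the mean of 3. Rosiglitazone libraries lie highest for 8 members, Prkar2b being the exception, and the symbol of replicate 2 is the lowest of its group for Pnpla2, Lipe, G0s2 and Hcar1 in all 5 groups. The share of all genes whose rosiglitazone libraries lie highest was not computed.

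Lipe (ENSMUSG00000003123, chromosome 7, 25078952 to 25098135, minus strand), the hormone-sensitive lipase, is the main cyclic AMP-regulated enzyme of the set. In 3T3-L1 cells it had 817, 516.5 and 879.6 normalized counts with vehicle, 1553, 753.1 and 1632 with dicoumarol, 2493, 1756 and 2689 with magnolol, 3421, 1983 and 3291 with the combination and 5897, 4779 and 6175 with rosiglitazone. The dicoumarol libraries overlapped those of vehicle through replicate 2, and the other 3 treated groups lay above them. The log2 fold changes were 0.79, 1.66, 1.97 and 2.96 (SE 0.28 each; limma adjusted p 1, 0.00996, 0.00101 and 1.42e-06), and the block gave 0.00232 for dicoumarol. Leaving out vehicle replicate 2 ended the magnolol call (0.0544), as did leaving out magnolol replicate 1 (0.0683) or 3 (0.0572). An opposite-strand noncoding gene overlaps Lipe in the mouse table with a mean of 26.8 normalized counts, and libraries were made with strand marking, but whether counting used it is not given in the sources used here.

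Porcine LIPE (ENSSSCG00000003018, chromosome 6, 49540708 to 49560125, plus strand) had the largest fold change of the tested pig members under every treatment. It had 404.1, 425.9 and 313.6 normalized counts with vehicle, 922.3, 719.4 and 777.7 with dicoumarol, 1254, 1372 and 1162 with magnolol, 2566, 2218 and 2195 with the combination and 3199, 2612 and 2467 with rosiglitazone. The vehicle, dicoumarol, magnolol and combination groups did not overlap one another, while the combination and rosiglitazone libraries did. The log2 fold changes against vehicle were 1.08, 1.73, 2.62 and 2.86 (SE 0.12 each), with limma adjusted p of 5.56e-05, 8.89e-08, 1.31e-10 and 2.89e-11. Each of these 4 calls held under all 12 alternatives run for it.

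Mgll (ENSMUSG00000033174, chromosome 6, 88701394 to 88805342, plus strand), the lipase of the last step, was a low-count gene in 3T3-L1 cells. It had 10.69, 3.424 and 3.487 normalized counts with vehicle, 30.92, 12.38 and 8.776 with dicoumarol, 35.89, 12.66 and 23.48 with magnolol, 41.57, 15.12 and 38.73 with the combination and 116.4, 46.76 and 96.32 with rosiglitazone. The dicoumarol group overlapped the vehicle group and the other treated groups lay above it. With the combination it rose by 2.29 on the log2 scale (SE 0.55, limma adjusted p 0.0223) and by 3.73 with rosiglitazone (adjusted p 6.92e-05). Leaving out vehicle replicate 2 (0.0876) or 3 (0.0866) or combination replicate 1 (0.131) or 3 (0.0868) ended the combination call. For magnolol the difference was 1.91 (adjusted p 0.139), which passed with the block (0.00203). The 2 overlapping genes of the mouse table had means of 3.99 normalized counts (opposite strand) and 0.711 (same strand).

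Porcine MGLL (ENSSSCG00000024134, chromosome 13, 72480174 to 72568961, plus strand) was amply counted in every library. It had 1416, 1331 and 1458 normalized counts with vehicle, 1562, 1594 and 1634 with dicoumarol, 1739, 1727 and 1681 with magnolol, 1851, 1844 and 1651 with the combination and 2800, 3486 and 2918 with rosiglitazone. All treated libraries lay above all vehicle libraries. On the log2 scale magnolol raised it by 0.29, the combination by 0.35 and rosiglitazone by 1.12 (SE 0.08 each; limma adjusted p 0.0349, 0.00611 and 1.18e-08), and the dicoumarol difference of 0.19 had an adjusted p of 0.347. Leaving out vehicle replicate 1 (0.0954) or 2 (0.113) or magnolol replicate 1 (0.121), 2 (0.0943) or 3 (0.0756) ended the magnolol call.

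**Figure D3:**
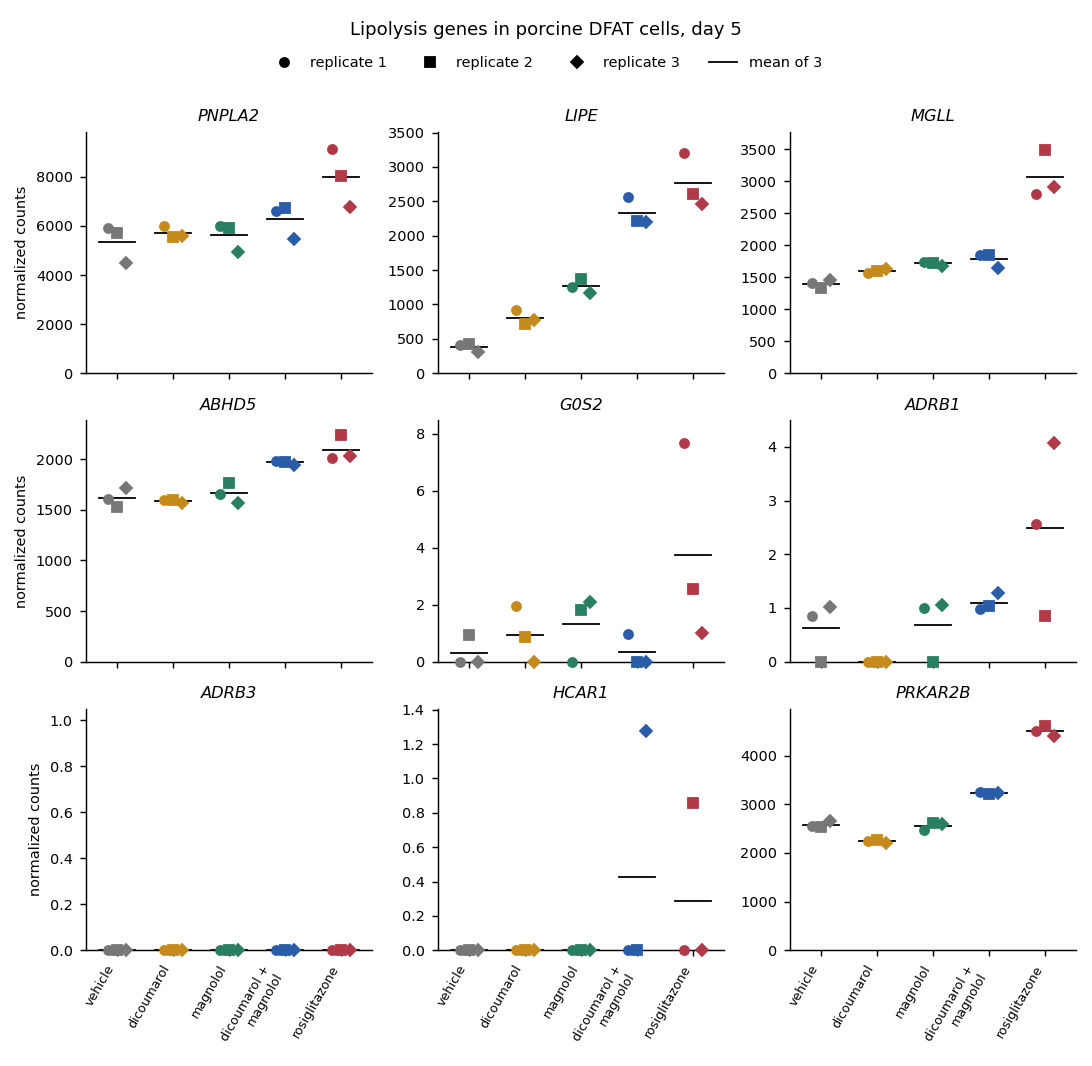
Normalized counts (y axes, linear from 0, a separate scale for each gene) of the 9 members in the 15 porcine DFAT libraries by treatment; symbols mark the replicate number and lines the mean of 3. LIPE steps up from group to group, PRKAR2B is lowest with dicoumarol, and the 4 genes G0S2, ADRB1, ADRB3 and HCAR1 stay below 8 normalized counts, with ADRB3 at 0.

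Abhd5 (ENSMUSG00000032540, chromosome 9, 122180673 to 122210589, plus strand), the coactivator of Pnpla2, changed less than the lipases in 3T3-L1 cells. It had 2737, 3262 and 2815 normalized counts with vehicle, 3240, 3156 and 3741 with dicoumarol, 3841, 3624 and 4208 with magnolol, 4606, 3914 and 4930 with the combination and 6368, 5934 and 7041 with rosiglitazone. Replicate 2 was the highest vehicle library and the lowest library of each treated group. The rises were 0.61 with the combination and 1.13 with rosiglitazone on the log2 scale (SE 0.11; limma adjusted p 0.00328 and 1.35e-06). Magnolol gave a difference of 0.41 with an adjusted p of 0.0963, or 0.0111 with the block, and dicoumarol 0.20 with an adjusted p of 1. An opposite-strand noncoding gene that overlaps it had a mean of 8.65 normalized counts.

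Porcine ABHD5 (ENSSSCG00000011297, chromosome 13, 27006208 to 27056744, plus strand) had 1607, 1525 and 1718 normalized counts with vehicle, 1595, 1600 and 1569 with dicoumarol, 1658, 1762 and 1563 with magnolol, 1984, 1973 and 1943 with the combination and 2015, 2233 and 2033 with rosiglitazone. The combination and rosiglitazone libraries lay above all others, and the vehicle, dicoumarol and magnolol groups overlapped. The rises against vehicle were 0.28 and 0.37 on the log2 scale (SE 0.06; limma adjusted p 0.00733 and 0.000667). For dicoumarol and magnolol the differences were -0.02 and 0.04, with 95% intervals of -0.16 to 0.11 and -0.10 to 0.17. The porcine gene overlaps ANO10 on the opposite strand, which had a mean of 4906 normalized counts, so its values are uncertain if the counting ignored strand.

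G0s2 (ENSMUSG00000009633, chromosome 1, 192954469 to 192955525, minus strand), the inhibitor of Pnpla2, had the largest fold changes of the tested members in 3T3-L1 cells with magnolol, the combination and rosiglitazone. It had 52.56, 8.559 and 22.09 normalized counts with vehicle, 106, 27.62 and 71.19 with dicoumarol, 171.7, 93.87 and 132.1 with magnolol, 240.3, 105.8 and 211.5 with the combination and 1016, 470.9 and 820 with rosiglitazone. Replicate 2 was lowest in each group, and only the dicoumarol group overlapped vehicle. The log2 fold changes were 1.41, 2.51, 2.95 and 5.01 (SE 0.55 each; limma adjusted p 1, 0.0336, 0.00433 and 4.88e-06), with 0.00734 for dicoumarol under the block. The magnolol call was lost without vehicle replicate 2 (0.135) or 3 (0.108) and without magnolol replicate 1 (0.177), 2 (0.0515) or 3 (0.135). Lamb3 overlaps G0s2 on the opposite strand, with a mean of 11.5 normalized counts.

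Porcine G0S2 (ENSSSCG00000015617, chromosome 9, 133287325 to 133287742, minus strand) was barely counted, over a gene model of only 418 bases. An estimated 1 read was found over the 3 vehicle libraries, 3 with dicoumarol, 4 with magnolol, 1 with both compounds and 10 with rosiglitazone. The ratio of rosiglitazone to vehicle was 11 with an exact 95% interval for counting error of 1.57 to 479, and 6 of the 10 reads came from replicate 1.

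The β-adrenergic receptors were scarce in 3T3-L1 cells. Adrb3 (ENSMUSG00000031489, chromosome 8, 27715804 to 27740644, minus strand), the receptor typical of mature rodent fat cells, had 0, 0.856 and 1.16 normalized counts with vehicle, 2.65, 0.952 and 0 with dicoumarol, 3.88, 2.11 and 2.94 with magnolol, 5.44, 3.78 and 0 with the combination and 44.98, 21.47 and 30.75 with rosiglitazone. The rosiglitazone libraries lay far above all others. The estimated reads were 88 with rosiglitazone against 2 with vehicle, a ratio of 51.7 (exact 95% interval for counting error 13.9 to 433), and against 9 with the combination, a ratio of 11.1 (5.6 to 25.1). Without the filter on low values, limma gave rosiglitazone against vehicle a difference of 4.33 on the log2 scale (SE 0.64, adjusted p 8.88e-05). The summed thermogenic fat cell markers were 39.15 to 66.69 normalized counts with rosiglitazone and 9.30 to 41.94 with vehicle. Elovl3 went from a mean of 0.775 with vehicle to 40.02 with rosiglitazone and Dio2 from 23.76 to 6.66, while Ucp1 stayed at or below 1.71 in every library; the part of such cells in the Adrb3 counts was not tested.

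Adrb1 (ENSMUSG00000035283, chromosome 19, 56710631 to 56721545, plus strand) had 2.67, 1.71 and 4.65 normalized counts with vehicle and 14.68, 9.79 and 12.35 with rosiglitazone, and 0.952 to 9.45 in the other groups. The rosiglitazone libraries lay above the rest, but only just: replicate 2 had 9.79, beside 9.45 in combination replicate 2. In estimated reads these libraries had 9 and 10, the reverse order. The ratio of rosiglitazone to vehicle was 4.31 from 33 and 9 estimated reads (2.02 to 10.2), and limma without the filter gave 1.78 on the log2 scale (adjusted p 0.0295). In DFAT cells ADRB3 was listed at 0 in all 15 libraries, and ADRB1 had at most an estimated 4 reads in any library.

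Hcar1 (ENSMUSG00000049241, chromosome 5, 124014799 to 124018083, minus strand), the lactate receptor through which fat cells restrain lipolysis, followed the lipases in 3T3-L1 cells. It had 4.45, 1.71 and 4.65 normalized counts with vehicle, 22.08, 3.81 and 7.80 with dicoumarol, 15.52, 9.49 and 20.54 with magnolol, 37.52, 13.23 and 35.75 with the combination and 71.29, 47.85 and 79.03 with rosiglitazone. All but the dicoumarol group lay above vehicle. It rose by 2.64 on the log2 scale with the combination and 3.91 with rosiglitazone (SE 0.53; limma adjusted p 0.00805 and 3.74e-05). Magnolol gave 1.83 with an adjusted p of 0.15, or 0.00459 with the block. The combination call was lost without combination replicate 1 (0.0639). In DFAT cells HCAR1 had an estimated 1 read over the combination libraries, 1 over the rosiglitazone libraries and 0 in the other groups.

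Prkar2b (ENSMUSG00000002997, chromosome 12, 32008475 to 32111295, minus strand) encodes the regulatory subunit that holds protein kinase A inactive until cyclic AMP binds. In 3T3-L1 cells it had 2778, 3141 and 2518 normalized counts with vehicle, 2959, 2575 and 3269 with dicoumarol, 3133, 3040 and 3247 with magnolol, 3478, 3007 and 3730 with the combination and 3673, 3826 and 4044 with rosiglitazone. Only the rosiglitazone group lay apart from vehicle. The rise with rosiglitazone was 0.46 on the log2 scale (SE 0.11, limma adjusted p 0.00282), the smallest of the 7 tested mouse members.

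Porcine PRKAR2B (ENSSSCG00000037706, chromosome 9, 106851031 to 106957510, plus strand) moved in both directions. It had 2560, 2522 and 2653 normalized counts with vehicle, 2243, 2265 and 2201 with dicoumarol, 2468, 2613 and 2595 with magnolol, 3255, 3215 and 3237 with the combination and 4501, 4601 and 4401 with rosiglitazone. Dicoumarol libraries lay below all others, magnolol overlapped vehicle, and the combination and rosiglitazone groups each lay above the rest. The log2 differences from vehicle were -0.20, -0.01, 0.33 and 0.80 (SE 0.05 each; limma adjusted p 0.0394, 0.937, 0.000227 and 3.74e-09). The dicoumarol call was lost when any 1 of the 6 vehicle and dicoumarol libraries was left out, with adjusted p from 0.0624 without vehicle replicate 2 to 0.19 without dicoumarol replicate 3. The other calls held under all 12 alternatives.

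Whether the combination differed from its parts was asked by comparing it with each compound alone and by the interaction, the difference between the combination's log2 effect and the 2 single effects added up. In 3T3-L1 cells 0 members were called against dicoumarol, where limma called 0.0254% of all genes higher and 1273 genes had an unadjusted p under 0.05. With the block 5 members were called (Pnpla2 by 0.91 on the log2 scale, Lipe by 1.18, Abhd5 by 0.41, G0s2 by 1.54 and Hcar1 by 1.46; adjusted p 3.93e-06 to 0.0288), against 2.49% of all genes. Against magnolol 0 members and 0% of all genes were called higher with limma, with 336 genes at an unadjusted p under 0.05. Without the block, the 95% intervals reached from -0.04 to 0.80 for Pnpla2, -0.29 to 0.91 for Lipe and -0.72 to 1.61 for G0s2. The SE with the block was smaller, at 0.07 for Pnpla2 (difference 0.38), 0.11 for Lipe (0.31) and 0.23 for G0s2 (0.44). The limma adjusted p with the block was 0.177, 0.638 and 0.709, and 0 members were called. The interaction called 0 members and 0% of all genes higher with limma, with 78 genes at an unadjusted p under 0.05. Its estimates ranged from -1.01 for Mgll (95% interval without the block -2.65 to 0.63) to 0.05 for Prkar2b (-0.27 to 0.37). With the block the SE was 0.10 for Pnpla2 (-0.29), 0.16 for Lipe (-0.48), 0.46 for Mgll and 0.33 for G0s2 (-0.97). It was 0.49 for Hcar1 (-0.37), 0.12 for Abhd5 (0.00) and 0.14 for Prkar2b, and 0 members were called.

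In DFAT cells the combination exceeded dicoumarol in 3 members, against 2% of all genes called higher: LIPE by 1.53 on the log2 scale (limma adjusted p 6.11e-07), ABHD5 by 0.31 (0.0127) and PRKAR2B by 0.53 (3.13e-06). The ABHD5 call was lost without dicoumarol replicate 1 (0.0571), dicoumarol replicate 3 (0.0632) or combination replicate 1 (0.0541). Against magnolol it exceeded in 2 members, against 0.385% of all genes: LIPE by 0.88 (0.00173) and PRKAR2B by 0.34 (0.00233). The numbers pair these 2 groups, but the block is 1 replicate effect shared by all 5 groups, unpaired ones included. With it ABHD5 was also called, at 0.25 (limma adjusted p 0.0439), with 1.02% of all genes called higher. The interaction called 1 member, PRKAR2B, at 0.54 (SE 0.07, 95% interval 0.40 to 0.69, limma adjusted p 0.00179), where 0.0405% of all genes were called higher. For LIPE the interaction was -0.20, with a 95% interval of -0.57 to 0.16.

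Rosiglitazone was compared with the combination to place the natural compounds against the PPARγ agonist. In 3T3-L1 cells 4 members were higher with rosiglitazone, against 9.53% of all genes: Pnpla2 by 1.21 on the log2 scale (limma adjusted p 0.00151), Lipe by 0.99 (0.0252), Abhd5 by 0.53 (0.00497) and G0s2 by 2.06 (0.0184). The block added Mgll at 1.44 (0.00341) and Hcar1 at 1.27 (0.011), with 16.1% of all genes called higher. The Lipe call was lost without combination replicate 2 (0.107), rosiglitazone replicate 1 (0.0904) or rosiglitazone replicate 3 (0.0708), and the G0s2 call without the same 3 libraries (0.0761, 0.0885 and 0.0507). Without rosiglitazone replicate 2 the Mgll difference passed (0.0345).

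In DFAT cells 2 members were higher with rosiglitazone than with the combination, against 8.24% of all genes: MGLL by 0.78 (limma adjusted p 1.84e-06) and PRKAR2B by 0.48 (3.79e-06). PNPLA2 was 0.35 higher with a limma adjusted p of 0.0501, or 0.016 without rosiglitazone replicate 3. The numbers pair these groups, but the block is 1 effect shared by all 5 groups, unpaired ones included. With the block the adjusted p for PNPLA2 was 0.000514, where 12.4% of all genes were called higher. LIPE differed by 0.24, with a 95% interval of -0.02 to 0.50, and ABHD5 by 0.09, with -0.05 to 0.22. In 3T3-L1 cells the corresponding interval for Lipe was 0.39 to 1.59. These comparisons share the rosiglitazone and combination libraries with those above, so their values are not independent.

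Members were then set against Pnpla2 within each library, which removes the library's scaling; genes differ in length, so these percentages of counts show change between groups and not molar ratios. Lipe counts in 3T3-L1 cells were 28.7% ± 3.16 (SD, n = 3) of Pnpla2 counts with vehicle, 31.5% ± 7.07 with dicoumarol, 39.8% ± 6.89 with magnolol, 37.8% ± 6.42 with both compounds and 32.2% ± 3.12 with rosiglitazone, and these groups overlapped in part. In DFAT cells LIPE was 7.1% ± 0.332 of PNPLA2 with vehicle, 14.1% ± 1.2 with dicoumarol, 22.5% ± 1.43 with magnolol, 37.3% ± 3.81 with both compounds and 34.6% ± 1.97 with rosiglitazone. The first 4 DFAT groups did not overlap.

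The coactivator and the inhibitor moved in opposite directions against Pnpla2 in 3T3-L1 cells. Abhd5 was 120% ± 36.3 (SD, n = 3) of Pnpla2 counts with vehicle, 84.8% ± 14.5 with dicoumarol, 68.1% ± 12 with magnolol, 60% ± 10.9 with both compounds and 37.3% ± 5.34 with rosiglitazone. G0s2 was 1.02% ± 0.735 with vehicle, 1.59% ± 0.712 with dicoumarol, 2.24% ± 0.254 with magnolol, 2.38% ± 0.577 with both compounds and 4.28% ± 0.918 with rosiglitazone. The rosiglitazone libraries lay below all others for Abhd5 and above all others for G0s2. In DFAT cells ABHD5 stayed between 22.1% and 38.2% of PNPLA2 counts in every library. These percentages are a description and were not tested.

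**Figure D4:**
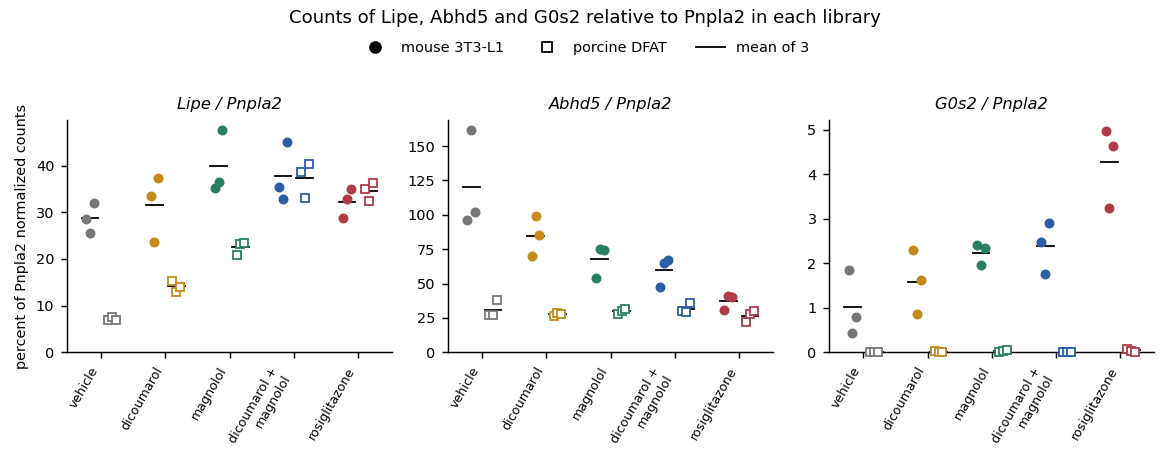
Counts of Lipe, Abhd5 and G0s2 as a percentage of Pnpla2 counts (y axes, linear from 0) in each library by treatment, filled circles for mouse 3T3-L1 and open squares for porcine DFAT, with lines for the mean of 3. The LIPE share in DFAT cells climbs from about 7.1% with vehicle to 37.3% with the combination, while in 3T3-L1 cells the Abhd5 share falls to 37.3% and the G0s2 share rises to 4.28% with rosiglitazone.

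Per kilobase of exon, with mouse exon lengths from GENCODE, Pnpla2 was the most abundant member in all 5 groups of 3T3-L1 cells. With vehicle its level was 842 ± 151 normalized counts per kb (SD, n = 3), next to Prkar2b at 770 ± 85.7, a gap within their spread, followed by Abhd5 at 493 ± 47.6, Lipe at 125 ± 33 and G0s2 at 31.8 ± 25.9. With rosiglitazone Pnpla2 was at 5810 ± 981 per kb and above every other member. Abhd5 (1083 ± 93.7), Prkar2b (1054 ± 51.2), Lipe (954 ± 126) and G0s2 (883 ± 317) then lay within each other's spread. Mgll, Hcar1, Adrb1 and Adrb3 stayed at or below 20.1 per kb on average in every group. Exon lengths for the pig were not used here, so pig genes are not ranked.

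Across the 15 libraries of 3T3-L1 cells, log2 levels of the 7 tested members varied together, with Pearson r between 0.756 (Mgll and Prkar2b) and 0.976 (Pnpla2 and G0s2). Across the 15 DFAT libraries r between the 5 tested members lay between 0.695 (PNPLA2 and ABHD5) and 0.916 (ABHD5 and PRKAR2B). The points share the 5 groups, so such values mostly restate the group differences. Among genes with a mean of at least 100, those most like Pnpla2 in 3T3-L1 cells were Agpat2 (r = 0.995), Cyc1 (0.994) and Aco1 (0.994). G0s2 was most like Adipoq (0.995), Fabp5 (0.991) and Plaat3 (0.988), and Lipe most like Fam83a (0.993), Kcnk3 (0.991) and Tbc1d4 (0.990). Abhd5 was most like Pex13 (0.984), Uqcc1 (0.981) and Pfkfb3 (0.981), and Mgll most like Retn (0.975), Gm6166 (0.972) and Lgals12 (0.971). Fabp5 (0.978) and Tmcc3 (0.977) were among those most like Hcar1, and Prkar2b was most like Fbxo45 (0.961), Ubqln1 (0.956) and Lrpprc (0.954).

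In DFAT cells the genes most like LIPE were AQP3 (r = 0.988), FABP3 (0.984) and PLIN4 (0.983). Those most like PNPLA2 were SLC5A6 (0.966), SLC12A7 (0.939) and ECI2 (0.938), and those most like MGLL were PSAT1 (0.965), HILPDA (0.954) and GTPBP2 (0.954). ABHD5 was most like PDE3B (0.963), ADIPOR2 (0.952) and ACER3 (0.938), and PRKAR2B most like HLCS (0.973), ELOVL7 (0.969) and ADORA1 (0.962). None of these genes was shared between the systems for the same member.

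The rest of the pathway was read from a list of 45 genes: receptors, G proteins and adenylyl cyclases, protein kinase A subunits, phosphodiesterases, the insulin arm, and droplet proteins, other lipases and carriers. In 3T3-L1 cells 37 were tested. None was called with dicoumarol, where 0% of all genes were called higher and 0% lower. With the block 3 were higher (Plin1, Ces1d and Fabp4), against 0.458% of all genes. With magnolol 5 were higher and 0 lower, against 1.07% and 0.153% of all genes. The block added Adora1, Hcar2 and Adcy6 to the rises, where 3.52% of all genes were called higher. With the combination 9 were higher and 1 lower, against 3.86% and 1.36% of all genes. The block gave 12 and 1, against 8.03% and 5.48%, adding Hcar2, Adcy6 and the kinase subunit Prkaca to the rises. With rosiglitazone 15 were higher and 7 lower (4 lower when only the compared groups were fitted), against 20.3% and 19.9% of all genes, so the 7 of 37 lower lay near the share over all genes. The block gave 16 and 9, against 24.4% and 25.4%, adding a rise of Adcy6 and falls of Adcy3 and Pde4d. Leaving out vehicle replicate 2 took the magnolol count to 2, and leaving out combination replicate 1 took the combination count to 5. Median log2 fold changes of the list were 0.00, 0.10, 0.05 and 0.01 in the order dicoumarol, magnolol, combination and rosiglitazone, beside medians over all genes within 0.011 of 0.

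Within the list the 9 tested droplet proteins, lipases and carriers held all 5 magnolol calls and 7 of the 15 rises with rosiglitazone. Plin1, the droplet coat that releases Abhd5 on phosphorylation, rose with magnolol by 3.06 on the log2 scale, with the combination by 3.45 and with rosiglitazone by 4.74 (SE 0.38; limma adjusted p 0.00142, 2e-04 and 3.57e-07). Ces1d, a carboxylesterase with lipase activity, rose by 2.72 with magnolol (0.0137), a call lost without vehicle replicate 2 or 3 or magnolol replicate 1 or 3 (0.0561 to 0.0878). Pnpla3, a relative of Pnpla2, rose by 3.39 with magnolol (0.0316) and 3.23 with the combination (0.0163) from a mean of 1.49 normalized counts with vehicle. The Pnpla3 calls were lost without any 1 of the magnolol libraries or of vehicle replicates 2 and 3 (0.0577 to 0.168), and for the combination without vehicle replicate 2 or 3 or combination replicate 1 or 3 (0.0701 to 0.109). With rosiglitazone the largest rises were those of Fabp4, the fatty acid carrier (5.68), and Aqp7, the glycerol channel (4.82), besides Plin1.

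Receptors that lower cyclic AMP split in 3T3-L1 cells. Adora1, an adenosine receptor, had a mean of 1.47 normalized counts with vehicle, 19.5 with the combination and 34.6 with rosiglitazone, and reached the minimum mean of 10 only through its high groups. It rose with the combination by 3.25 (limma adjusted p 0.00179). Npy1r, a neuropeptide Y receptor, fell by 0.87 with the combination (0.042), a call lost without any 1 of the 3 vehicle libraries or of combination replicates 1 and 2 (0.0552 to 0.189). With rosiglitazone the largest falls among the genes called were those of Npy1r (-2.35, adjusted p 2.28e-06), the adenylyl cyclase Adcy9 (-1.09, 0.000869) and the insulin-arm kinase Akt1 (-0.45, 0.00218). Adcy3 and Pde4d differed by -0.87 (0.128) and -0.55 (0.0528), and with the block both passed (0.00593 and 0.00167). Of 4 tested protein kinase A subunits besides Prkar2b, 2 rose and 2 fell with rosiglitazone, where 20.3% of all genes were called higher and 19.9% lower.

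For DFAT cells 40 of the 45 symbols were listed and 36 tested. With dicoumarol 2 were higher and 3 lower, against 0.911% and 1.03% of all genes. With magnolol 7 were higher and 5 lower, against 2.96% and 1.27%. With the combination 8 were higher and 5 lower, against 6.11% and 4.06%, and with rosiglitazone 9 and 3, against 5.8% and 5.02%. Median log2 fold changes of the list were -0.06, -0.06, -0.03 and 0.04. Without vehicle replicate 3 the count lower with magnolol was 3, and the count lower with rosiglitazone was 5 without rosiglitazone replicate 2 and 2 without vehicle replicate 1. PLIN1 rose by 2.15, 3.90, 4.79 and 5.05 in the order dicoumarol, magnolol, combination and rosiglitazone (SE 0.10; limma adjusted p 1.66e-09, 1.68e-13, 2.70e-15 and 2.23e-15). FABP4 rose by 0.72, 1.42, 2.54 and 3.66, and PLIN5, a droplet protein of oxidative cells, by 2.40, 2.90 and 3.27 with the last 3 treatments. PLIN5 was a low-count gene, with group means of 1.64 normalized counts with vehicle, 0.611 with dicoumarol, 11.6 with magnolol, 16.1 with both compounds and 20.9 with rosiglitazone, and it reached the minimum mean of 10 only through the groups where it was high. The PLIN5 call for magnolol was lost without vehicle replicate 1 (0.0654) or magnolol replicate 3 (0.0815).

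Among the pathway genes called, the largest falls in DFAT cells with dicoumarol, magnolol and the combination were those of 2 phosphodiesterases and a kinase subunit. The phosphodiesterase PDE4B, which degrades cyclic AMP, fell on the log2 scale by 1.32 with dicoumarol, by 1.23 with magnolol and by 1.71 with both compounds (SE 0.23; limma adjusted p 0.00423, 0.00387 and 8.40e-05), and PDE4D fell by 1.27, 0.95 and 1.34 (SE 0.08). PRKAR1A, another regulatory subunit of protein kinase A, fell by 0.37, 0.42 and 0.47 (SE 0.06; adjusted p 0.00331, 0.000668 and 8.47e-05). With rosiglitazone these 3 genes differed from vehicle by -0.58, -0.22 and -0.04, with adjusted p of 0.14, 0.0992 and 0.793. The falls called there were ADCY7, an adenylyl cyclase (-0.44), PIK3R1 (-0.41) and INSR, the insulin receptor (-0.26), the last of which was lost without vehicle replicate 1, vehicle replicate 2 or rosiglitazone replicate 3 (0.0674 to 0.117). The phosphodiesterases did not all fall. Of the 4 tested, 1 was called higher with the combination and 1 with rosiglitazone, in neither case PDE4B or PDE4D. The largest log2 fold changes of these 4 were 1.04 and 1.56, and 6.11% and 5.8% of all genes were called higher.

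**Figure D5:**
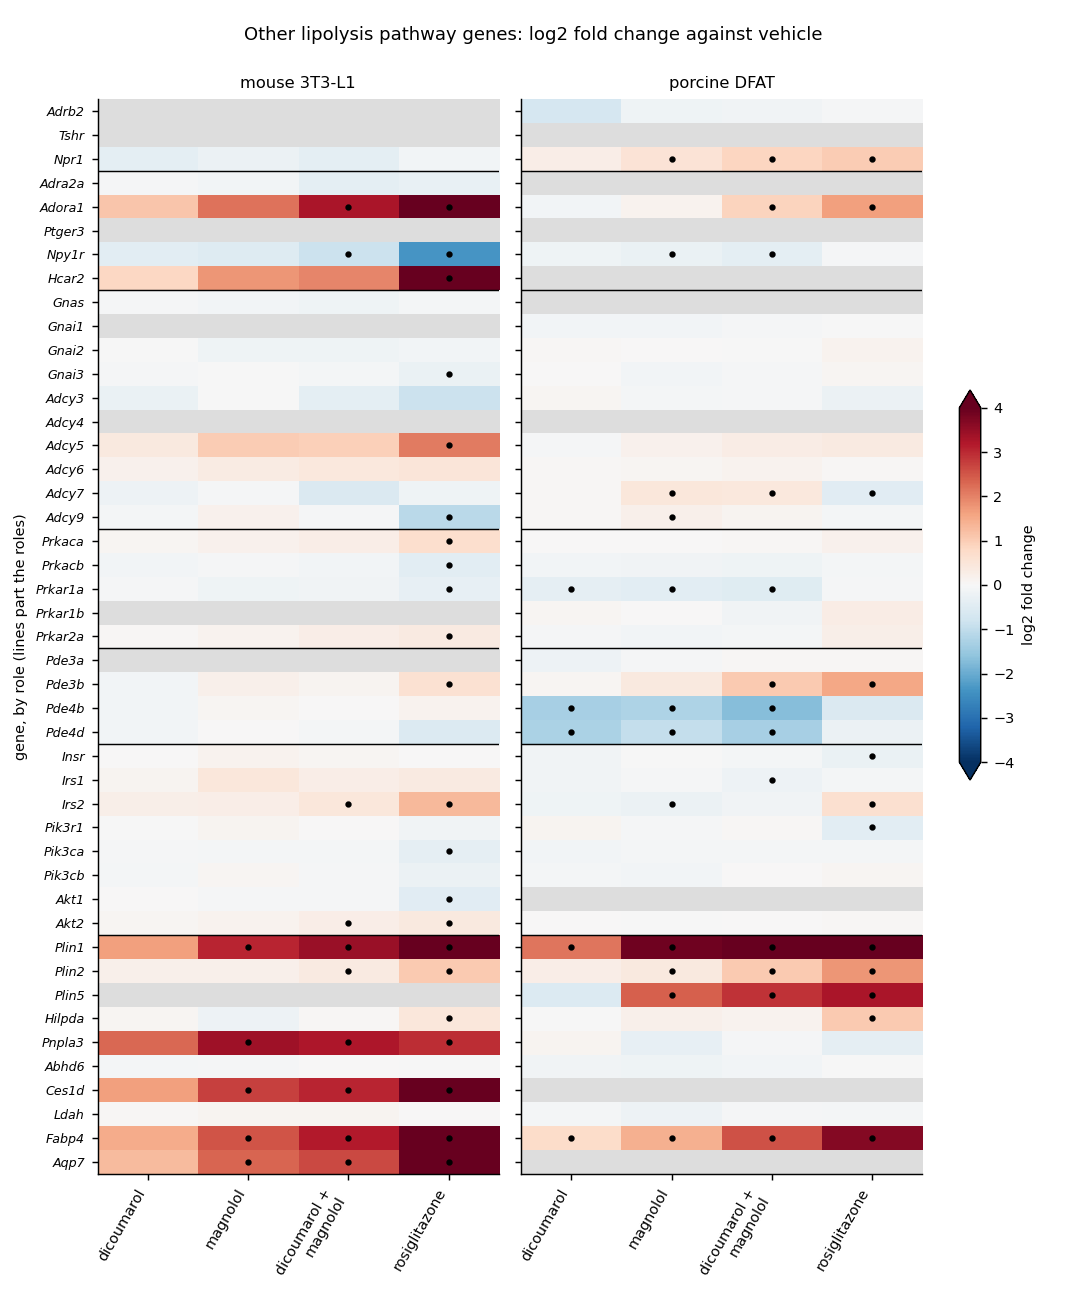
Log2 fold change against vehicle (colour) of the 45 other pathway genes in rows, ordered by role, for 4 treatments in each system; dots mark a limma adjusted p under 0.05 and grey marks genes not listed or not tested. Plin1 and Fabp4 rise in both systems with magnolol, the combination and rosiglitazone, and the falls of Pde4b, Pde4d and Prkar1a stand in the DFAT panel with dicoumarol, magnolol and the combination.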

How the data were processed

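Strand-marked poly(A) libraries of 30 samples were sequenced, per the labels' protocols. The authors deposited normalized gene counts, a signal scaled by DESeq2 size factors, in 1 file per species. The submitters' processing notes name bcl2fastq 2.19.1.403, STAR, DESeq2 and the build GRCm38 for both systems, without role or order. Only 0.677% of 20397 mouse genes matched by symbol start where RefSeq GRCm38.p6 has them, so gene coordinates are as deposited, with their build unsettled and the end as the listed stop less 1; promoters were matched by symbol.

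Low values were whole multiples of a read in only 81.6% to 82.7% (3T3-L1) and 89.8% to 91.0% (DFAT) of cases, within 0.02 of a read, so read numbers are estimates, no count test was run, and intervals from them cover counting error only. A mean of at least 10 over 15 libraries was required. limma 3.58.1 (R 4.3.3) was fitted on log2(value + 1), 5 groups in 1 model with a variance trend, two-sided, with Benjamini-Hochberg adjustment over all genes at 0.05. The fit was also run on simulated counts with known changes. These had independent libraries, no replicate effect and the same dispersion for every gene, so they cannot show how the fit behaves under the pairing seen here. All 30 same-numbered pairs of 3T3-L1 libraries deviated together (lowest r 0.106, median 0.300), so a replicate block is given beside results whose call it alters. In DFAT cells such pairing held only among magnolol, combination and rosiglitazone (0.105 to 0.345). The block is 1 replicate effect shared by all 5 groups of a system, so in DFAT cells it is no paired test of 2 groups. Chi-square per gene between replicates was at least 8.02, so none was a library deposited again. Members and lists were chosen with earlier results of these data known. Named were all members, the 3 largest rises and falls among called pathway genes in each comparison with vehicle, and the 3 genes most like each tested member, of which 1 is not reported here. Alternatives were a pseudocount of 5, no filter, quantile normalization, no variance trend, only the compared groups, the block and leaving out each library. Python 3.11.15, numpy 2.4.6, pandas 2.3.3 and matplotlib 3.10.9 were used.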

Additional observations from a re-analysis of the deposited data

Results flagged for a closer look

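In DFAT cells the effect of magnolol on PRKAR2B differed with and without dicoumarol: the interaction was 0.54 on the log2 scale (SE 0.07, limma adjusted p 0.00179). PRKAR2B was 0.20 lower than vehicle with dicoumarol alone and within 0.01 of it with magnolol alone, and 0.33 higher with both. The estimate stayed between 0.52 and 0.56 under 18 alternatives, with a highest adjusted p of 0.0178.

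The dicoumarol libraries lay on opposite sides of the vehicle mean for Abhd5 in the 2 systems, but overlapped the vehicle libraries in both. All 3 dicoumarol libraries were above the vehicle mean in 3T3-L1 cells (log2 difference 0.20) and all 3 were below it in DFAT cells (-0.02). Neither difference passed the test (limma adjusted p 1 and 0.947), and the difference between the systems was not tested.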

How the results depend on the processing

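No result changed direction under any alternative run for a called member. With the replicate block the count of members called in 3T3-L1 cells was 3 for dicoumarol, 6 for magnolol and 5 for the combination against dicoumarol. The shares of all genes called higher with the block were 0.458%, 3.52% and 2.49%. In DFAT cells dicoumarol gave 1 member when only the compared groups were fitted, and magnolol gave 1 with no filter and 1 with no variance trend. Leaving out 1 library at a time gave, in 3T3-L1 cells, 0 (without magnolol replicate 1) to 3 members for magnolol, 0 to 1 (without combination replicate 2) for the combination against dicoumarol, and 2 to 5 (without rosiglitazone replicate 2) for rosiglitazone against the combination. In DFAT cells it gave 1 in each case for dicoumarol and 1 to 2 for magnolol. The cause was not tested. Shares of all genes called with a library left out, or under the DFAT alternatives just named, are not given here. These counts therefore do not set the members apart from other genes. Without the variance trend the 3T3-L1 calls of G0s2 for magnolol (adjusted p 0.104) and of Lipe for rosiglitazone against the combination (0.0543) were lost; G0s2 for magnolol was also lost when only the compared groups were fitted (0.0679), and PRKAR2B for dicoumarol in DFAT cells likewise (0.0643). MGLL for magnolol in DFAT cells was lost with no filter (0.0687) and with no variance trend (0.0699). Among pathway genes, Pnpla3 for magnolol was lost with a pseudocount of 5 (0.0654), with no variance trend (0.0774) and with only the compared groups (0.0702), Ces1d for magnolol with no variance trend (0.0565), Npy1r for the combination with no filter (0.0535) and no variance trend (0.0872), and with only the compared groups PLIN5 for magnolol (0.0545) and INSR for rosiglitazone (0.0719). A pseudocount of 5 brought Mgll in 3T3-L1 cells (0.0498) and PNPLA2 in DFAT cells (0.0493) past the threshold for rosiglitazone against the combination. In DFAT cells, where the numbers pair only 3 groups, the replicate block gave PNPLA2 a limma adjusted p of 0.0161 for the combination against vehicle. It gave the pathway list 5 falls with rosiglitazone, against 7.69% of all genes called lower. Otherwise the block changed no member's call in either system beyond those named in the results. Depth limits Adrb1 and Adrb3 in 3T3-L1 cells and G0S2, ADRB1, ADRB3 and HCAR1 in DFAT cells, where a few reads decide a value.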
